A study of Mus musculus with 18 samples.

Results

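Bcl6 and 9 genes of the growth hormone, prolactin and STAT5 pathway were followed through 18 libraries of polyadenylated RNA from epithelial cells that had been sorted by flow cytometry from the mouse ileum, the distal small bowel. The 10 genes were a list of symbols (Bcl6, Socs2, Cish, Socs3, Prlr, Ghr, Jak2, Stat5a, Stat5b and Igf1r) out of 47729 gene identifiers counted in each library, and 10 of 10 passed the filter on low counts that left 15572 genes. The libraries were 6 from females on day 7 of lactation, 6 from virgin males and 6 from virgin females, and both virgin groups were matched to the lactating females for age. No genotype, transgene, strain, age in weeks or sorting gate is given in the labels, and they do not say that each library is a separate animal, so p-values reflect the spread between libraries, which may be technical. The colony diet was RM3 during breeding and RM1 otherwise, so that diet and lactation cannot be told apart where the diets differed. Library totals were 34577104 to 49039300 counts. The epithelial markers Epcam and Vil1 were between 1504 and 3165 CPM and between 1825 and 4980 CPM (library-size-normalised counts, scaled by the TMM method), and Ptprc, the pan-leukocyte marker, was at most 0.373 CPM in any library. A pair of libraries stood apart by the predicted gene Gm42418, which overlaps ribosomal RNA and was at 29980 CPM in library 6 of the virgin males and at 31050 CPM in library 2 of the virgin females, while the other libraries had 1230 to 4477 CPM.

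Growth hormone and prolactin bind receptors that have no kinase of their own and signal through the kinase JAK2 to STAT5A and STAT5B, which enter the nucleus and bind DNA. Cish, Socs2 and Socs3 encode inhibitors that STAT proteins induce and that then dampen the same receptors. BCL6 is a repressor with a BTB domain and zinc fingers, best known from germinal-centre B cells. In mouse liver it is repressed by growth hormone through STAT5, and BCL6 and STAT5 can bind overlapping DNA sites.

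The DNA in front of these genes is shown first, since STAT5 sites near Bcl6 and Cish are the textbook link between the members. RefSeq promoter windows (GRCm38.p6, from 250 bases before to 50 bases after a transcription start) were matched for 9 of the 10 genes, with 15 windows in all. Socs2 had no window in this reference. The STAT5 motif TTCNNNGAA, which reads alike on both strands, was present in 5 of these 15 windows and in 4 of the 9 genes (Bcl6, Cish, Socs3 and Prlr). Among all RefSeq promoter windows of the same length, 2726 of 32851 (8.3%) held it, and 2582 of 27025 genes (9.55%) had it in at least 1 window. Genes were not matched for their number of windows, and the difference in shares was not tested. The BCL6 motif TTCCTNGAA, searched on both strands, is a special case of the STAT5 motif and was present in 1.59% of all windows. Capitals mark the STAT5 motif in the sequences that follow, each written 5′ to 3′ on the gene's own strand.

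Both Bcl6 windows and the Cish window hold the motif, and Bcl6 window 2 and the Cish window hold it more than once. The stretch of Bcl6 window 2 shown here is at chr16:23981358-23981456 (minus strand), within an intron of the GENCODE gene, and its 3 motifs start at -168, -122 and -88 from the RefSeq start. The Cish stretch lies in an exon at chr9:107296654-107296683 (plus strand), with motifs that start at 1 and 12. The first motif of each of these stretches also matches the BCL6 motif.
Bcl6 window 2: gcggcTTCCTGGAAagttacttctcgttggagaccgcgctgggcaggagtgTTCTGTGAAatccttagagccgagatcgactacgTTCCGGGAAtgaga
Cish: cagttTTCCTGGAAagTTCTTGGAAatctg
Single motifs, shown with their neighbouring bases, were found in Bcl6 window 1 at chr16:23988951-23988980 (minus strand, outside the gene, motif start -118), in Socs3 at chr11:117969501-117969530 (minus strand, intron, -154) and in Prlr window 2 at chr15:10223786-10223815 (plus strand, intron, -110). The Prlr site also matches the BCL6 motif.
Bcl6 window 1: agcaaattagTTCTCAGAAttccagaggcc
Socs3: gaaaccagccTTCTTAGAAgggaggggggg
Prlr window 2: gcaaaatgagTTCTAGGAAtaagggatatc
The windows of Ghr, Jak2, Stat5a, Stat5b and Igf1r do not hold these letters. These matches describe the sequence and do not show that a protein binds there in the ileum.

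The list of 10 genes was selected on these data: it was put together with the log2 fold changes and calls of lactating against virgin libraries known. For these contrasts the values, log2 fold changes and standard errors (SE) of the 10 genes are therefore given as a description, without p-values. The contrast of virgin males with virgin females was not used to list them, and there the genes were tested with edgeR's quasi-likelihood test over all 15572 genes. In bulk RNA, fewer cells of a type and less RNA per cell cannot be told apart.

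Bcl6 (chr16:23965052-23988852, minus strand, GRCm38) was the gene of the list with the widest separation between groups. Its lowest, median and highest levels were 2.10, 2.98 and 4.16 CPM in the lactating females, 8.58, 11.98 and 13.9 CPM in virgin males and 8.49, 11.5 and 16.4 CPM in virgin females. Every lactating library was below every virgin library of either sex, and the 2 virgin groups covered nearly the same range. The log2 fold change was -1.96 (SE 0.18) in lactating against virgin females, a level 3.90-fold lower. Against virgin males it was -1.93 (SE 0.18), or 3.82-fold lower. The raw counts behind these values were 85 to 628 reads per library.

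Bcl6 stayed separate under each scaling tried (TMM, library size alone and TPM). On TPM (counts normalised for exon length and library size), Bcl6 averaged 0.849 ± 0.211 among the lactating females, 3.67 ± 0.376 in virgin males and 3.27 ± 0.631 in virgin females (SD, n = 6 each), again with no overlap between lactating and virgin libraries. Over 26 alternative fits the log2 fold change stayed between -2.07 and -1.85 against virgin females and between -2.07 and -1.84 against virgin males. Without virgin female 2 and virgin male 6 it was -1.85 against virgin females. The alternatives include a fit with a cell cycle score as a covariate, which gave -1.93 and -2.07 in the same order.

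Markers of lymphocytes, the cells in which Bcl6 is best known, were low in all groups. The summed level of 10 T cell and intraepithelial lymphocyte markers was 0.357 to 6.24 CPM in lactating females, 0.384 to 1.62 CPM in virgin males and 0.567 to 3.90 CPM in virgin females. The 8 B and plasma cell markers summed to 1.15 to 8.26 CPM in lactating females, 1.16 to 2.59 CPM in virgin males and 0.878 to 4.67 CPM in virgin females. In lactating females all 3 tested T cell and intraepithelial lymphocyte markers had log2 fold changes above 0. Their medians were 0.86 against virgin females and 1.16 against virgin males, with 0 called. All 4 tested B and plasma cell markers were also above 0, with medians of 0.56 and 0.91 and 0 called. Ptprc and Cd3e were near 0. Ptprc averaged 0.247, 0.240 and 0.239 CPM in lactating females, virgin males and virgin females, and Cd3e averaged 0.119, 0.0320 and 0.0659 CPM in the same order. The part of these cells in the Bcl6 values was not tested.

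**Figure D1:**
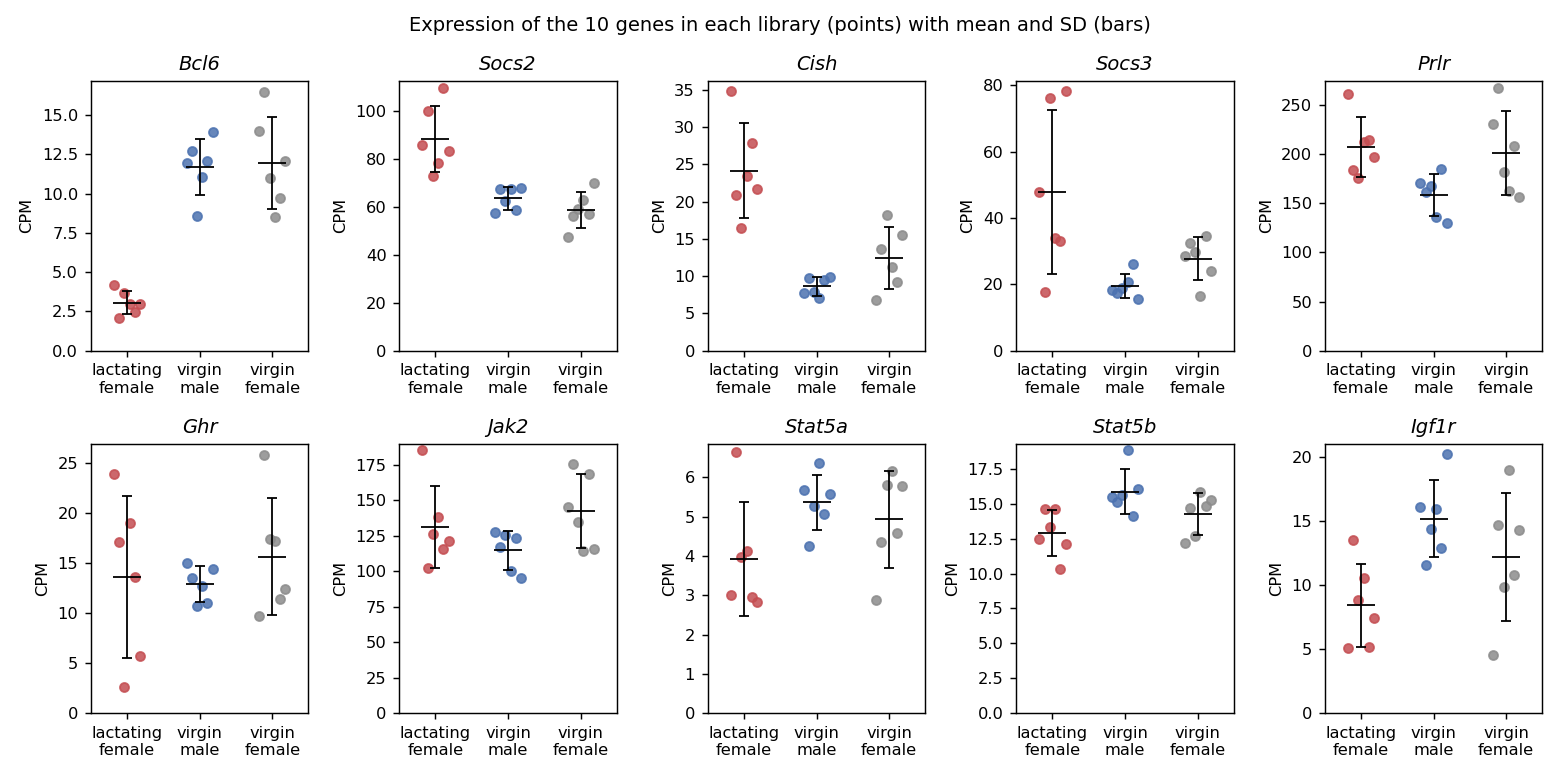
Expression of the 10 genes (CPM, TMM-scaled, linear axes from 0) in each of the 6 libraries of lactating females, virgin males and virgin females, with points for libraries, long horizontal lines for means and bars for the SD. Bcl6 in lactating females (2.10 to 4.16 CPM) lies below all virgin libraries, and Socs2 (72.9 to 109 CPM) lies above them on this scale.

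The log2 fold changes of the 3 feedback inhibitors were above 0 in lactating females against either virgin group, and the groups overlapped for Cish and Socs3 against virgin females and for Socs3 against virgin males. Socs2, which is induced by growth hormone and limits growth hormone signalling in mice, had lowest, median and highest levels of 72.9, 84.4 and 109 CPM in the lactating females, 57.2, 64.8 and 67.6 CPM in virgin males and 47.3, 57.9 and 69.7 CPM in virgin females. Every lactating library was above every virgin library on this scale, by a small margin, and its log2 fold change was 0.59 (SE 0.11) against virgin females and 0.47 (SE 0.11) against virgin males. The margin was lost under other scalings. On TPM the levels were 14.27 to 23.95 in lactating females, 13.05 to 15.64 in virgin males and 8.465 to 14.35 in virgin females, and 5 of 6 lactating libraries were above every virgin female library, with lactating library 1 just under the highest of them. The mean ratio on TPM was 1.5 to virgin females and 1.22 to virgin males.

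Cish, a STAT5-induced inhibitor that binds phosphorylated cytokine receptors, had 16.5, 22.5 and 34.8 CPM (lowest, median and highest) in lactating females, 7.02, 8.73 and 9.88 CPM in virgin males and 6.74, 12.4 and 18.2 CPM in virgin females. All lactating libraries were above all male libraries, while lactating library 3 at 16.5 CPM was below virgin female library 3 at 18.2 CPM. Scaled by library size alone these libraries also overlapped, with 16.75 CPM in lactating library 3 and 17.13 CPM in virgin female library 3, while on TPM they did not, with 5.43 to 8.59 in lactating females and 1.79 to 4.996 in virgin females. Its log2 fold change was 0.96 (SE 0.21) against virgin females and 1.48 (SE 0.21) against virgin males. Exons of Cish overlap the antisense genes Gm17040 and Gm17041, which had 62 and 4 counts over all 18 libraries.

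Socs3, an inhibitor induced mainly by STAT3 and also by STAT5, had 17.7, 40.9 and 78.1 CPM in the lactating females, 15.6, 18.5 and 26.0 CPM in virgin males and 16.5, 29.3 and 34.5 CPM in virgin females. The lactating libraries were the most spread out, with libraries 3 and 6 above 76.0 CPM. Libraries 2, 4 and 5, at 17.7, 33.9 and 33.1 CPM, were within the range of the virgin females. Of the lactating libraries, 3 were above every virgin female library and 5 above every male library, so that the groups overlapped. The log2 fold change was 0.79 (SE 0.28) against virgin females and 1.30 (SE 0.28) against virgin males.

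The receptors did not stand apart between groups. Prlr, the prolactin receptor, had lowest, median and highest levels of 175.5, 204.5 and 261.0 CPM in the lactating females, 130, 164 and 184 CPM in virgin males and 156, 195 and 267 CPM in virgin females. The range of the lactating females lay within that of the virgin females, and the males lay lower with overlap. Prlr had a log2 fold change of 0.04 (SE 0.14) against virgin females and 0.39 (SE 0.14) against virgin males. The ratio of its means to virgin males was 1.31 on this scale, 1.14 by library size alone and 1.13 on TPM. Ghr, the growth hormone receptor, had 2.64, 15.4 and 23.9 CPM in the lactating females, 10.7, 13.2 and 15.0 CPM in virgin males and 9.68, 14.8 and 25.8 CPM in virgin females. Lactating libraries 3 and 6, at 2.64 and 5.77 CPM, were below every virgin library, and the other 4 were within or above the range of the males. Ghr had a log2 fold change of -0.20 (SE 0.36) against virgin females and 0.08 (SE 0.36) against virgin males. The sign of these small values was not stable, since Ghr was at 0.02 against virgin females without lactating library 3 and at -0.15 against virgin males without lactating library 1. Lactating libraries 3 and 6, the lowest for Ghr, were also the highest for Socs3. This was seen in the values and was not tested.

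Igf1r, the receptor for insulin-like growth factor 1, which growth hormone induces in liver, had 5.10, 8.13 and 13.5 CPM in the lactating females, 11.6, 15.2 and 20.3 CPM in virgin males and 4.56, 12.6 and 19.0 CPM in virgin females. The groups overlapped, with the lactating libraries toward the low end. The log2 fold change was -0.53 (SE 0.28) against virgin females and -0.85 (SE 0.28) against virgin males. With the cell cycle score as a covariate these were -0.61 and -0.60.

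The kinase and the STATs also overlapped between groups. Jak2, the kinase that both hormone receptors use, had 102, 124 and 185 CPM in the lactating females, 95.4, 120.4 and 128 CPM in virgin males and 114, 140.4 and 176 CPM in virgin females, with log2 fold changes of -0.12 (SE 0.14) against virgin females and 0.19 (SE 0.14) against virgin males. Stat5a, the STAT5 form that the mammary gland depends on most, had 2.83, 3.49 and 6.65 CPM in the lactating females, 4.26, 5.43 and 6.36 CPM in virgin males and 2.88, 5.18 and 6.16 CPM in virgin females. Lactating library 2 held the highest Stat5a level of all and the other 5 lactating libraries were at or under 4.14 CPM. Stat5a had a log2 fold change of -0.33 (SE 0.21) against virgin females and -0.45 (SE 0.21) against virgin males. Stat5b, the form that carries most growth hormone signalling in mouse liver, had 10.3, 12.9 and 14.6 CPM in the lactating females, 14.1, 15.5 and 18.9 CPM in virgin males and 12.2, 14.8 and 15.8 CPM in virgin females. Its log2 fold change was -0.14 (SE 0.10) against virgin females and -0.30 (SE 0.10) against virgin males. Stat5a and Stat5b are close paralogs and may share reads. Stat5a also shares 72 exon bases with Stat3 on the opposite strand, which had 96187 counts over the 18 libraries, and the strand setting of the counting is not given in the sources used here.

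**Figure D2:**
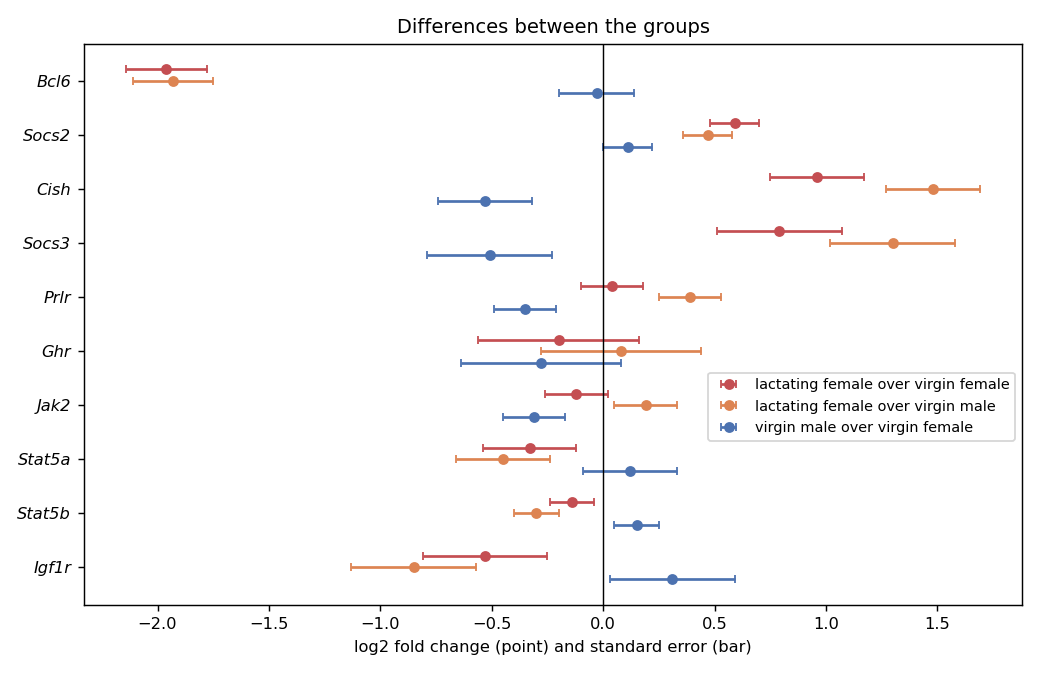
Log2 fold changes (points) and SE (bars) of the 10 genes from the fit over all genes, for lactating against virgin females, lactating females against virgin males, and virgin males against virgin females. Bcl6 lies at -1.96 and -1.93 in the contrasts with lactating females and at -0.03 between the virgin groups. Cish lies at 0.96, 1.48 and -0.53.

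In lactating against virgin females, 2 of the 10 genes (Bcl6 and Socs2) had an adjusted p under 0.05 in the edgeR fit, against 0.0578% of all genes tested. The groups did not overlap for the same 2, against 0.289% of all genes tested. In lactating females against virgin males, 4 of the 10 (Bcl6, Socs2, Cish and Socs3) passed, against 0.764% of all genes, and the groups did not overlap for Bcl6, Socs2 and Cish, against 1.34%. The genes were listed with these calls known, so the counts only restate the choice. Both contrasts share the lactating libraries. The alternative fits reuse the libraries on which the list was chosen, so a call kept in them describes the processing and is no independent support. Bcl6 was called in 26 of 26 alternative fits in both contrasts, and Cish in 26 of 26 against virgin males and 1 of 26 against virgin females. Socs2 was called in 6 of 26 against virgin females and 9 of 26 against virgin males. Leaving out single libraries ended the Socs2 call against virgin females in 15 of 18 fits, all except those without lactating 3, lactating 4 or virgin female 6, with log2 fold changes of 0.52 to 0.64 over all alternatives. Against virgin males the Socs2 call was lost without lactating 1, 5 or 6, without virgin female 2, 3 or 5, or without any single male, with 0.40 to 0.52 over all alternatives. Socs3 was called in 13 of 26 against virgin males and was not called without lactating 1, 3 or 6 or without virgin male 1, 2, 3, 4 or 6, with 1.10 to 1.47 over all alternatives. The median log2 fold change was -0.13 over the 10 genes against virgin females and 0.14 against virgin males, beside -0.00 and -0.01 over all genes.

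Between virgin males and virgin females, 0 of the 10 genes were called by the edgeR test, against 0.0835% of all genes tested, and the groups overlapped for all 10, against 0.43% of genes that did not overlap. An unadjusted p under 0.05 was found for 3 of the 10 (Cish, Prlr and Jak2), beside 1295 of the 15572 genes tested (8.32%), and DESeq2 called 0 of the 10. Bcl6 had a log2 fold change of -0.03 in males against females (SE 0.17, edgeR adjusted p = 0.957), with a 95% interval of -0.37 to 0.31. This interval does not reach the size of the contrasts with lactating females. Its sign was positive in some fits, at 0.14 when the cell cycle score was added to the model and at 0.03 when virgin female 2 and virgin male 6 were left out. For Socs2 the log2 fold change was 0.11 (SE 0.11, edgeR adjusted p = 0.675), with an interval of -0.09 to 0.32. Cish was lower in males by the fit, at -0.53 (SE 0.21), with an interval of -0.93 to -0.12. All 6 male libraries were below the female mean, but the edgeR adjusted p over all genes was 0.565. Prlr at -0.35 (interval -0.62 to -0.08) and Jak2 at -0.31 (interval -0.59 to -0.03) had the same edgeR adjusted p of 0.565. These differences were smaller under other scalings. The ratio of the male to the female mean of Prlr was 0.787 on TMM, 0.893 by library size alone and 0.915 on TPM. For Jak2 it was 0.807, 0.913 and 0.935 in the same order. With the cell cycle score as a covariate Prlr was at -0.15 and Jak2 at -0.13, and without virgin female 2 and virgin male 6 they were at -0.20 and -0.19. The remaining log2 fold changes were -0.51 for Socs3, -0.28 for Ghr, 0.12 for Stat5a, 0.15 for Stat5b and 0.31 for Igf1r, with edgeR adjusted p-values from 0.565 to 0.826. The enterocyte marker list stood lower in males, with 0 of 10 genes called, 0 of 10 above 0 and a median log2 fold change of -0.70, and the cell cycle list stood higher, with 0 of 20 called, 20 of 20 above 0 and a median of 0.36. With the cell cycle score as a covariate, Stat5a was at -0.13 and Igf1r at -0.01 in this contrast.

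Levels were compared between genes per exon length. By mean TPM over the 18 libraries the order was Jak2 (49.8), Prlr (23.7), Socs3 (20.9), Socs2 (14.3), Stat5b (5.10), Cish (4.44), Ghr (2.998), Bcl6 (2.60), Igf1r (1.43) and Stat5a (1.32). Among neighbours in this order the ranges over libraries were separate for Jak2 over Prlr and for Socs2 over Stat5b. The other neighbours overlapped. Prlr was above Socs3 in 16 of 18 libraries, Stat5b was above Cish in 11 and Ghr was above Bcl6 in 8. The order of means was not the same in each group. In lactating females Socs3 (30.7 TPM) was above Prlr (24.99 TPM), and Cish (6.87 TPM) was above Stat5b (4.44 TPM). Bcl6 was above Ghr in virgin males (3.67 and 3.01 TPM) and in virgin females (3.27 and 3.19 TPM), and in virgin males Bcl6 and Ghr were both above Cish (2.84 TPM). The level of Prlr per length was above that of Ghr in every library, since the lowest Prlr value was 15.9 TPM and the highest Ghr value 4.95 TPM. In the lactating libraries alone, Bcl6 had the lowest mean of the 10, at 0.849 TPM, beside 0.992 TPM for Igf1r and 1.08 TPM for Stat5a.

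**Figure D3:**
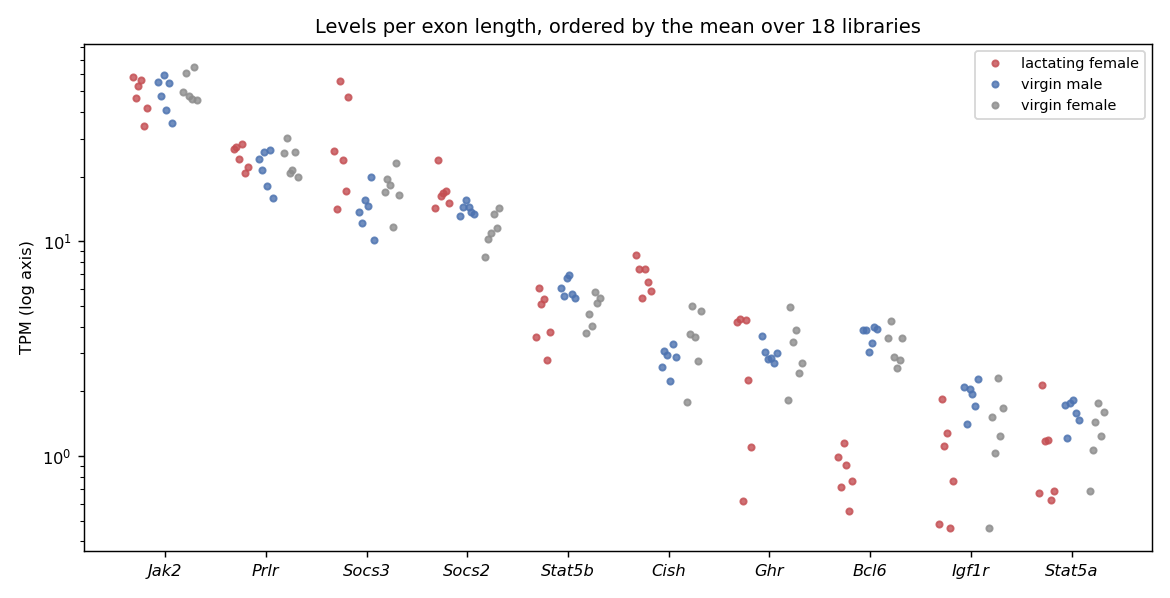
TPM (log axis) of the 10 genes in each library, ordered by the mean over 18 libraries, with lactating females, virgin males and virgin females side by side. Jak2 at 34.4 to 64.8 TPM lies above all others but Socs3, and Bcl6 spans 0.556 to 4.26 TPM with the lactating libraries at the low end.

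Among libraries of the same group, several of the genes followed scores of position along the crypt and villus. The cell cycle score is the mean log2 CPM of 20 genes of dividing crypt cells and the villus tip score that of 10 genes of the villus end. Each gene was compared with both scores over 18 libraries after subtracting group means, with two-sided permutation within groups (100000 draws) and adjustment over 20 pairs. Of these, 9 pairs had an adjusted p under 0.05. The share of all genes that would pass with the same scores was not tested. The count therefore does not show that these genes follow the scores more often than other genes do.

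Prlr and Jak2 went with the villus. Prlr had a Pearson's r of -0.809 and a Spearman's rho of -0.754 with the cell cycle score (permutation p = 0.00014, adjusted 0.0014), and an r of 0.783 and a rho of 0.802 with the villus tip score (permutation p = 3e-05, adjusted 0.0006). Within lactating females, virgin males and virgin females, r of Prlr was -0.945, -0.569 and -0.869 with the cell cycle score and 0.905, 0.839 and 0.807 with the villus tip score. Without the 2 libraries farthest from the median score, r of Prlr was -0.755 and 0.691. Jak2 had r of -0.724 and rho of -0.614 with the cell cycle score (permutation p = 0.00474, adjusted 0.0135), and r of 0.696 and rho of 0.688 with the villus tip score (permutation p = 0.0024, adjusted 0.0096). Without the 2 farthest libraries these were -0.656 and 0.533, with permutation p adjusted to 0.0568 and 0.066, so the relations of Jak2 rest in part on those libraries.

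Stat5a, Stat5b and Igf1r went the other way. Stat5a had r of 0.812 and rho of 0.816 with the cell cycle score (permutation p = 0.00085, adjusted 0.00425), and r was 0.749, 0.797 and 0.905 within lactating females, virgin males and virgin females. With the villus tip score its r was -0.628 and its rho -0.651 (permutation p = 0.0085, adjusted 0.0213). Igf1r had r of 0.804 and rho of 0.740 with the cell cycle score (permutation p = 0.00067, adjusted 0.00425) and r of -0.659 and rho of -0.717 with the villus tip score (permutation p = 0.00325, adjusted 0.0108). Without the 2 farthest libraries, Igf1r had an r of -0.578 with the villus tip score (permutation p adjusted to 0.0646). Stat5b had r of 0.628 and rho of 0.719 with the cell cycle score (permutation p = 0.0138, adjusted 0.0306), and with the villus tip score r of -0.573 and rho of -0.598 (permutation p = 0.0258, adjusted 0.0516). Without the 2 farthest libraries, r with the cell cycle score was 0.775 for Stat5a, 0.689 for Igf1r and 0.648 for Stat5b. Stat5b then had an r of -0.658 with the villus tip score (permutation p adjusted to 0.0493). Without virgin female 2 and virgin male 6 this r was -0.639 (permutation p adjusted to 0.0342), so whether this pair passes depends on the libraries kept.

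Bcl6, Ghr and the 3 inhibitors did not pass with either score. Ghr had r of -0.255 with the cell cycle score and 0.330 with the villus tip score (permutation p adjusted to 0.518 and 0.381). Bcl6 had r of -0.551 and rho of -0.467 with the cell cycle score (permutation p = 0.0470, adjusted 0.0854), and -0.345 without the 2 farthest libraries. Cish had r of -0.912 in lactating females, -0.854 in virgin males and 0.536 in virgin females with the cell cycle score, and -0.132 over the 18 libraries. The groups thus went in opposite directions for Cish, and this difference was not tested. The scores themselves overlapped between groups. Summed cell cycle levels were 372.9 to 1155 CPM in lactating females, 782 to 1040 CPM in virgin males and 372 to 1125 CPM in virgin females. In lactating females against virgin males 0 of the 20 cell cycle genes were above 0, with a median of -0.26 and 0 called. With this score as a covariate, Stat5a was at -0.26, Stat5b at -0.22, Prlr at 0.24 and Jak2 at 0.04 in that contrast. The relations of genes and scores are within libraries that share a scaling factor for gene and score.

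**Figure D4:**
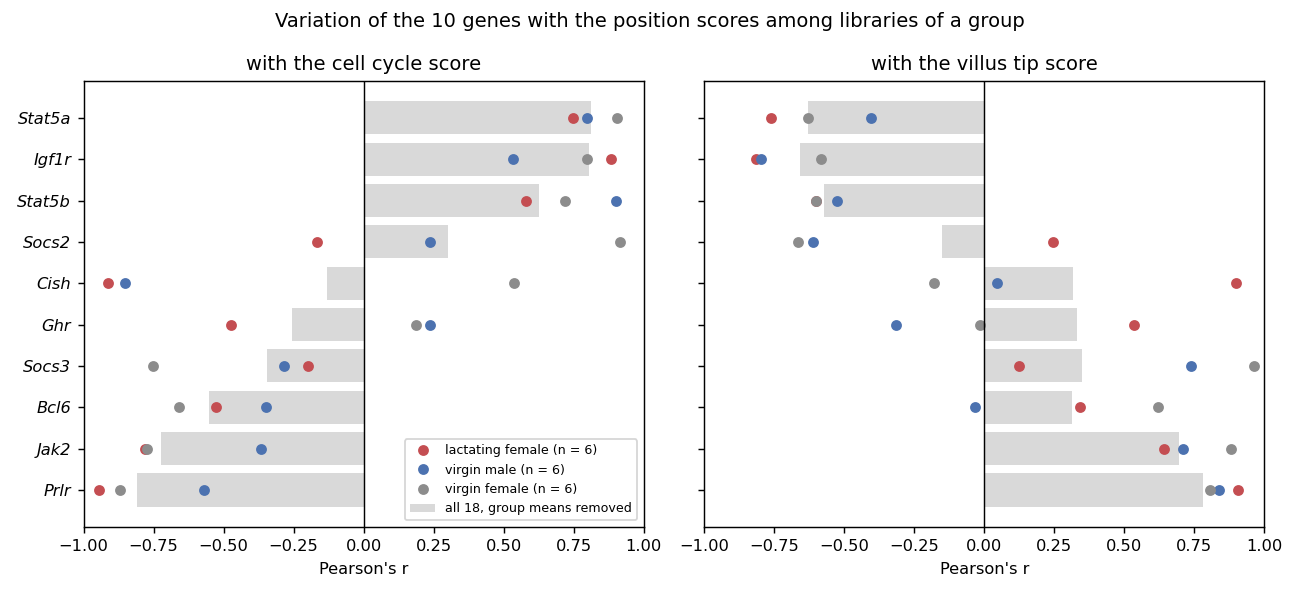
Pearson's r of each of the 10 genes with the cell cycle score (left) and the villus tip score (right), as points within lactating females, virgin males and virgin females (6 libraries each) and as grey bars over all 18 libraries with group means removed. Stat5a (0.812), Igf1r (0.804) and Stat5b (0.628) lie to the right in the left panel, and Jak2 (-0.724) and Prlr (-0.809) to the left.

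Within groups, no relation of Bcl6 with another of the 10 genes passed the test. Of 9 pairs, 0 had a permutation p under 0.05 before or after adjustment. The largest r were 0.515 with Socs3 and -0.504 with Stat5a (permutation p = 0.0564 and 0.0688, adjusted to 0.206 for both). With Jak2, r was 0.492 (permutation p = 0.0686, adjusted 0.206) over the 18 libraries and 0.866, -0.453 and 0.509 within lactating females, virgin males and virgin females. Over the 18 libraries r was -0.443 with Socs2 (adjusted 0.222) and 0.150 with Cish (adjusted 0.682). With Socs2, r was -0.687 in lactating females, 0.209 in virgin males and -0.419 in virgin females.

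The genes whose log2 CPM, with group means removed, was most like that of Bcl6 over the 18 libraries were Fam160a1 (r = 0.79), Zfp36 (0.774), Tmem151a (0.751), Sirt1 (0.729) and Inpp5a (0.729). For Socs2 they were Zfp668 (0.885), Ptov1 (0.85), Pcyox1l (0.836), Cfap300 (0.834) and Foxa3 (0.833), and for Cish they were Abtb2 (0.841), Ccne2 (0.777), Arrb2 (0.776), Ppp1r10 (0.736) and Btc (0.734). These are the top of a ranking of all genes and carry no test. Within virgin males r with Bcl6 was 0.256 for Fam160a1, 0.698 for Zfp36, 0.432 for Tmem151a, 0.668 for Sirt1 and 0.278 for Inpp5a. There Ccne2 had an r of 0.065 with Cish. In lactating against virgin females the fold changes of the 5 genes most like Bcl6 were unlike its own. They were -0.31 for Fam160a1, -0.24 for Zfp36, -0.37 for Tmem151a, -0.20 for Sirt1 and 0.02 for Inpp5a. Tmem151a was at 1.25 in lactating females against virgin males. Zfp36 belongs to a list of 14 early response genes that are induced by stress and tissue dissociation. Their summed level was 2529 to 3898 CPM in lactating females, 2738 to 4588 CPM in virgin males and 3276 to 4351 CPM in virgin females, with 0 of 14 called and a median log2 fold change of -0.23 in lactating against virgin females. With the score of this list as a covariate, a fit added after seeing the data, the log2 fold change of Bcl6 was -1.91 against virgin females and -1.87 against virgin males.

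Of the other genes of the pathway, 114 were listed by role and 80 were tested. In lactating against virgin females 0 of the 80 were called by the edgeR test over all genes and 7 (8.75%) had an unadjusted p under 0.05, beside 6.44% of all genes. Between virgin males and virgin females 0 were called and 6 (7.5%) had an unadjusted p under 0.05, beside 8.32% of all genes. In lactating females against virgin males 1 was called, which is 1.25% of the 80 beside 0.764% of all genes, and 19 (23.8%) had an unadjusted p under 0.05, beside 15.9% of all genes. The median log2 fold change of the 80 was -0.00, -0.07 and 0.03 in these contrasts, beside -0.00, -0.01 and -0.01 over all genes.

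Among STAT5 targets known from other tissues (16 of 25 tested), the called gene was Pim3, a serine/threonine kinase of the PIM family. Pim3 had lowest, median and highest levels of 41.6, 50.9 and 63.3 CPM in the lactating females, 24.0, 33.7 and 36.1 CPM in virgin males and 29.4, 40.0 and 46.7 CPM in virgin females. Every lactating library was above every male library, with overlap between the females. Pim3 was higher in lactating females than in virgin males, by a log2 fold change of 0.72 (SE 0.13, edgeR adjusted p = 0.00706). This call held in all 26 alternatives. The contrast differs in sex as well as lactation, and in virgin males against virgin females Pim3 was at -0.31 (SE 0.13, edgeR adjusted p = 0.565). In lactating against virgin females it was at 0.41 (SE 0.13, edgeR adjusted p = 0.484), with 6 of 6 lactating libraries above the virgin female mean. Tph1, which makes serotonin in enterochromaffin cells and is induced through STAT5 in mouse pancreatic islets, was at 0.78 (SE 0.26, edgeR adjusted p = 0.542) against virgin females and at 0.82 (edgeR adjusted p = 0.170) against virgin males. Its level was 3.30 to 7.85 CPM in lactating females, 1.61 to 4.29 CPM in virgin males and 2.43 to 4.59 CPM in virgin females. Tph1 is also an enteroendocrine marker, and the 11 markers of that list summed to 276 to 593 CPM in lactating females, 214 to 449 CPM in virgin males and 278 to 378 CPM in virgin females, with 10 of 11 above 0 against virgin females, a median of 0.54 and 0 called. The part of these cells in the Tph1 value was not tested. Between the virgin groups Ccnd2, a cyclin of the G1 phase, was at 0.49 in males (SE 0.19, edgeR adjusted p = 0.565).

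The corepressors of Bcl6 and related BTB zinc finger genes (11 of 13 tested) had 0 called in the 3 contrasts. Mta3, a subunit of the NuRD complex that BCL6 recruits in B cells, was at -0.24 in lactating against virgin females (SE 0.08, edgeR adjusted p = 0.512), with 0 of 6 lactating libraries above the virgin female mean. Ncor1, a corepressor bound by the BTB domain, was at 0.19 in that contrast and at 0.48 against virgin males (SE 0.14, edgeR adjusted p = 0.135). Of the genes that BCL6 represses in lymphocytes, 17 of 23 were tested and 0 were called. Prdm1, which encodes the repressor BLIMP1 and opposes Bcl6 in B cells, had 4.17, 19.6 and 25.2 CPM in the lactating females, 2.41, 5.64 and 15.3 CPM in virgin males and 2.505, 10.7 and 16.2 CPM in virgin females. Its groups overlapped, and the log2 fold change was 0.86 against virgin females (SE 0.47, edgeR adjusted p = 0.821) and 1.36 against virgin males (SE 0.47, edgeR adjusted p = 0.203). Id2, an inhibitor of basic helix-loop-helix factors, was at -0.38 against virgin females (edgeR adjusted p = 0.787). It was also at -0.37 in virgin males against virgin females (edgeR adjusted p = 0.565). Its mean was 30.3 CPM in lactating females, 30.5 CPM in virgin males and 39.5 CPM in virgin females. For lactating females the median log2 fold change of the 17 was -0.02 against virgin females and -0.01 against virgin males.

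Among the other JAK kinases and STATs (7 of 8 tested), 0 were called. Stat2, which acts in interferon signalling, had 45.6, 85.6 and 102 CPM in the lactating females, 33.8, 44.7 and 71.9 CPM in virgin males and 39.5, 65.3 and 87.0 CPM in virgin females. Its log2 fold change was 0.30 against virgin females (SE 0.21, edgeR adjusted p = 0.910) and 0.71 against virgin males (SE 0.21, edgeR adjusted p = 0.147). Without lactating library 2 the second was 0.83, with an edgeR adjusted p of 0.0416. In virgin males against virgin females all 7 were below 0, among them Stat3 at -0.37 and Jak1 at -0.18 (edgeR adjusted p = 0.565 for both). In lactating females against virgin males all 7 were above 0. These contrasts share the male libraries, and the enterocyte list was at a median of 0.72 in the second, with 0 of 10 called.

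The other SOCS proteins and JAK-STAT brakes (14 of 14 tested) and the other receptors that use JAK-STAT (15 of 23 tested) also had 0 called in each contrast. Pias2, a SUMO ligase, was at -0.30 (SE 0.11, edgeR adjusted p = 0.630) and Sh2b3, an adaptor that restrains JAK2, was at -0.28 (SE 0.12, edgeR adjusted p = 0.732) in lactating against virgin females, with 0 of 6 lactating libraries above the virgin female mean for both. Sh2b3 was also at -0.28 in virgin males against virgin females (SE 0.12, edgeR adjusted p = 0.565). Its mean was 21.6 CPM in lactating females, 21.7 CPM in virgin males and 26.2 CPM in virgin females. Socs4 was at 0.14 in lactating against virgin females (edgeR adjusted p = 0.912). Among the receptors, Ifnar1, a chain of the type I interferon receptor, was at -0.19 (SE 0.08, edgeR adjusted p = 0.689) and Il22ra1, a chain of the interleukin 22 receptor, at -0.37 (SE 0.21, edgeR adjusted p = 0.842).

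Gh and Prl, the genes of growth hormone and prolactin, had 0 counts in all 18 libraries, and the highest count of Igf1 in any library was 3. A count of 3, taken as the floor, is 0.0612 to 0.0868 CPM depending on the library and covers counting error only. Of the 16 ligands and genes of the IGF system, 7 were tested and 0 were called in any contrast. Insr, the insulin receptor, was at -0.35 in lactating against virgin females (SE 0.21, edgeR adjusted p = 0.859). Igf2 was at 0.53 in that contrast (SE 0.41, edgeR adjusted p = 0.913) and at 1.237 against virgin males (SE 0.42, edgeR adjusted p = 0.192). In virgin males against virgin females Igf2 was at -0.71 (SE 0.42, edgeR adjusted p = 0.569). Its level ran over 12.1 to 86.5 CPM in lactating females, 7.63 to 22.7 CPM in virgin males and 13.9 to 46.3 CPM in virgin females. Of the STAT5 targets of the mammary gland and liver, Wap, Elf5 and Onecut1 had 0 counts in every library.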

How the data were processed

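The authors deposited 1 table of raw counts per gene for each library. The submitters' processing notes name HISAT2 2.0.4 (an aligner), featureCounts and Subread 2.0.0 (a read counter), FastQC 0.11.5, DESeq2 1.24.0 and the build GRCm38. Annotation release, strand setting and treatment of reads with several matches are not given in the sources used here. RNA was prepared with RNeasy Plus Micro columns and a directional NEBNext Ultra II kit with poly(A) selection, per the labels' protocols.

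Of 47729 identifiers, 47310 were found in GENCODE M21, which gave symbols, coordinates and exon lengths, and 0 rows named no gene. Genes were filtered with filterByExpr and scaled by TMM in edgeR 4.0.16 (R 4.3.3). The quasi-likelihood fit held all 18 libraries and a term for each group, with Benjamini-Hochberg adjustment over 15572 genes and calls at an adjusted p under 0.05. SE is |log2 fold change|/√F, and a 95% interval is the fold change ± 1.96 SE. Scores used log2 CPM with a prior count of 2. TPM used the union of exons. The script was tested on simulated data.

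The 10 genes, the 7 pathway lists and the 17 marker lists were chosen with earlier results of these data known. Named pathway genes were every called gene and up to 4 by smallest p per list and contrast. Not all of them are reported here. The 5 genes most like Bcl6, Socs2 and Cish were named by r, and the ligands and targets with few or no counts were named after their values were seen. Of 153 pairs of libraries, none matched within sampling noise (lowest chi-square per degree of freedom 35.8). The sex-linked genes matched the labels, with Ddx3y at 0 to 0.0267 CPM in lactating females, 25.4 to 30.7 CPM in virgin males and 0 to 0.0742 CPM in virgin females. Alternatives were DESeq2 1.42.0, RLE scaling, no filter, the 2 groups alone, a replicate block, a cell cycle covariate, an early response covariate (added after seeing the data), and fits without single libraries or without the 2 high in Gm42418. The comparisons on TPM and plain CPM were also added after seeing the data.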

Additional observations from a re-analysis of the deposited data

Results flagged for a closer look

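Stat5a in lactating library 2 was at 6.65 CPM, apart from the other 5 lactating libraries at 2.83 to 4.14 CPM. Its gap to the nearest was 0.657 of the group's range, above the critical value of 0.625 for 6 samples. It was 1 of 30 groups checked (10 genes in 3 groups), and chance gives about 1 in 20. On this scale the same library was the lowest of the lactating libraries for Bcl6 (2.10 CPM) and Socs3 (17.7 CPM). On TPM the lowest for Bcl6 was lactating library 5 (0.556 TPM), beside 0.719 TPM in library 2. Lactating library 2 also had the highest cell cycle score of the 18 libraries (5.38). The cause was not tested.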

How the results depend on the processing

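Of 780 fold changes of the 10 genes under the alternatives, 18 had the opposite sign to the reported value. In virgin males against virgin females there were 7, with Bcl6 at 0.14 with the cell cycle covariate, at 0.03 without virgin female 2 and virgin male 6 and within -0.11 to 0.08 when single libraries were left out, Stat5a at -0.13 and Igf1r at -0.01 with the cell cycle covariate. None of these was called in any fit. The other 11 were near 0: in lactating against virgin females Ghr in 3 fits (0.0019 to 0.0198) and Prlr in 4 (-0.0349 to -0.0015), and in lactating females against virgin males Ghr in 4 (-0.15 to -0.04, with -0.07 under the cell cycle covariate and under the replicate block). The cause was not tested. Leaving out the 2 farthest libraries gave Ghr and Bcl6 an r of 0.18 (-0.019 over all 18).

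Counts over all genes moved more. In lactating against virgin females, 9 genes were called, beside 63 with the cell cycle covariate, 67 with DESeq2, 3 with the early response covariate, 1 with the replicate block, 1 with the 2 groups alone, 1 without virgin female 2 and virgin male 6, and 2 to 16 without single libraries. In virgin males against virgin females 13 were called, beside 43 with DESeq2, 20 with no filter and 10 to 18 without single libraries. In lactating females against virgin males 119 were called, beside 409 with DESeq2, 56 with the early response covariate, 61 without virgin female 2 and virgin male 6, and 62 to 311 without single libraries (311 without lactating 2). Pathway genes called in this contrast were 1, beside 2 with DESeq2 and 1 to 2 without single libraries (2 without lactating 2). The cause was not tested.

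Same-numbered pairs had r of -0.219 to 0.477, with 7 of 18 over 0.1, and in 4 of the 18 pairs r was higher than with any other number. These values show no consistent pairing by replicate number, but they cannot exclude one. With the block, 114 genes were called in lactating females against virgin males (119 without it). In lactating against virgin females 1 was called (9 without it), and between the virgin groups 11 were called (13 without it).

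Counting depth was 85 to 628 reads per library for Bcl6 and 98 to 337 for Stat5a, and the SE over the 10 genes in lactating against virgin females ran from 0.10 (Stat5b) to 0.36 (Ghr).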

Other observations

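The remaining marker lists describe the sorted cells around these genes, and 0 of their tested genes were called except where stated. Summed levels of 8 epithelial markers were 12930 to 21570 CPM in lactating females, 13610 to 16160 CPM in virgin males and 12940 to 22080 CPM in virgin females. Enterocyte markers summed to 21950 to 77870, 14790 to 32660 and 21560 to 69420 CPM in the same order of groups. Crypt stem cell markers summed to 290 to 869, 613 to 908 and 277 to 962 CPM, and all 10 were below 0 in lactating females against either virgin group (medians -0.28 against virgin females and -0.54 against virgin males). Villus tip markers summed to 3095 to 9246, 2824 to 5496 and 3327 to 5564 CPM.

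Goblet markers (medians 0.01 and 0.03 against virgin females and virgin males) and Paneth markers (-0.37 and -0.43) had 0 genes called. Tuft markers were at medians of 0.04 and -0.38. Gcg, which encodes proglucagon, was the called enteroendocrine marker, at 0.90 in lactating females against virgin males (SE 0.20, edgeR adjusted p = 0.0460). Vim, the 1 tested gene of 10 fibroblast and muscle markers, was at 4.05 CPM in lactating females, 2.22 CPM in virgin males and 2.24 CPM in virgin females, and rose against virgin males by 0.87 (SE 0.16, edgeR adjusted p = 0.00812), while Lum was at 0 in every library. Myeloid markers summed to 27.6 to 35.5, 21.9 to 57.5 and 18.01 to 54.7 CPM, endothelial markers to 2.54 to 7.77, 3.61 to 5.32 and 3.74 to 5.26 CPM, neuron and glia markers to 0.176 to 0.615, 0.265 to 0.750 and 0.364 to 0.732 CPM, and red blood cell markers to at most 3.47 CPM. The part of these cells in the values of Bcl6 and the pathway was not tested.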
